A study of Mus musculus with 6 samples.

Results

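Alox12 and 9 further genes of the eicosanoid pathway were described across 6 mouse tumours: Alox12, Alox15, Alox5, Alox5ap, Lta4h, Ltc4s, Ptgs1, Ptgs2, Ptges and Hpgd. They were taken by symbol from the table of counts per Entrez gene, and all 10 were among its 15295 genes and among the 14498 genes tested. The group was chosen by the measured counts of Alox12, which separated the 2 sets of tumours in this same comparison, so its difference between the sets is given below as a description, and nothing is read from a test of it. The other 9 were added as enzymes or helper proteins of the same pathway.

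The tumours were grafts of NA13, a bladder cancer line of the mouse, and the labels give C57BL/6 as the strain. There were 3 libraries labelled shDdr2, from cells with a short hairpin RNA against Ddr2, and 3 control libraries, from cells with a scrambled hairpin, and all 6 tumours received IgG. Ddr2 encodes a collagen-binding receptor tyrosine kinase. RNA came from whole homogenised tumours, so tumour cells and host cells are mixed, and fewer cells of a type cannot be told apart from less RNA per cell. The labels do not say whether libraries of a group came from separate animals, which hairpin sequences were used or when tumours were taken, so errors cover only the spread among 3 samples of a group, part of which could be technical.

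Eicosanoids are signalling lipids made from arachidonic acid, which phospholipases release from membranes. Cyclooxygenases (Ptgs1, Ptgs2) and the synthases after them make prostaglandins and thromboxane, while lipoxygenases (the Alox genes) make hydroperoxy acids and, through Alox5, leukotrienes. In tumours, prostaglandin E is known as a signal of inflammation and growth, and leukotrienes and many lipoxygenase products are known as products of blood and skin cells.

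Promoters are shown for Alox12, around which the group was built, and for Ptgs2 and Ptges, the most abundant members. Each line gives the 250 bases before the RefSeq start of the gene on its own strand (GRCm38.p6), at chr11:70255371-70255620 on the minus strand for Alox12, chr1:150099781-150100030 on the plus strand for Ptgs2 and chr2:30903298-30903547 on the minus strand for Ptges. Capitals mark GC boxes, the letters GGGCGG on either strand, a motif known to bind Sp1-family factors.
Alox12: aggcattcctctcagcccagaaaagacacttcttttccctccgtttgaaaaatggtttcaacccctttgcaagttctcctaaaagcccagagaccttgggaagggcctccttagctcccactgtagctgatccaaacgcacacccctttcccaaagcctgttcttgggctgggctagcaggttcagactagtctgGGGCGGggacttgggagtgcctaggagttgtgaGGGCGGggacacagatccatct
Ptgs2: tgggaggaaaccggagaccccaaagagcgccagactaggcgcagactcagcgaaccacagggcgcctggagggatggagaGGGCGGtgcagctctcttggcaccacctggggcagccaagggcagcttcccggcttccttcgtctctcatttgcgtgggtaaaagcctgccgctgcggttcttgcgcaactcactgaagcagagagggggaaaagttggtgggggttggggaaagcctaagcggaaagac
Ptges: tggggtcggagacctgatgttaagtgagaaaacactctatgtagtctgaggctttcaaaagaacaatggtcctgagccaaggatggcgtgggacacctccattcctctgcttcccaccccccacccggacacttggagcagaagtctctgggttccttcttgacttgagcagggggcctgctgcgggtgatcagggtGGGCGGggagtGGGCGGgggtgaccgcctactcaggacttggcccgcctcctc
Alox12 and Ptges each held 2 GC boxes and Ptgs2 held 1, and 32.7% of the 32851 promoters in the RefSeq table hold at least 1. Those of Alox12 lay at -55 to -50 and at -22 to -17 from the start. Those of Ptges lay at -53 to -48 and at -42 to -37, and that of Ptgs2 at -170 to -165. The letters TATAAA, found in 12.4% of all promoters on either strand, were in none of the 8 member promoters that the table holds, and TGANTCA (6.75%), TGACGT (6.47%), CACGTG (6.02%) and GCGGGGGCG (2.57%) were not found in them either. A match or its absence describes letters in this window alone and says nothing of binding. Bases after the RefSeq start were not searched. No motif searched overlapped another in these windows.

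The targeted gene, Ddr2, overlapped between the groups. It stood at 4.84, 19.0 and 28.6 CPM (the count scaled to a common library total) in those labelled shDdr2 1 to 3, against 6.42, 16.7 and 20.5 CPM in control 1 to 3, a log2 fold change of 0.27 (95% interval -1.27 to 1.81). An exact two-sided permutation test gave p = 0.9, where 0.1 is the smallest possible. Omitting single libraries moved the log2 fold change to 0.71 (shDdr2 1 omitted), -0.28 (shDdr2 3 omitted) or -0.08 (control 1 omitted). Fibroblast markers (6 of 6 in the table) summed to 1188, 3533 and 9790 CPM in those labelled shDdr2 1 to 3 and to 2301, 4046 and 4940 CPM in control 1 to 3, in the same order within each group as Ddr2, and their part in the level of Ddr2 was not tested. Directions below are between libraries as labelled. Library totals ran from 15976000 to 19522985 counts in the libraries labelled shDdr2 and from 15560571 to 18917186 in controls. The library labelled shDdr2 1 stood apart on the leading principal component (-85.2, with the others from -16.3 to 45.7), and control 1 on the next (-55.7). Both are set out library by library below. The basal keratin Krt5 was abundant in all 6 libraries (4939 to 5954 CPM).

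Alox12 encodes the platelet-type arachidonate lipoxygenase, which is known in platelets and in epithelia of the skin. The gene lies on chromosome 11 at 70241457 to 70255353, minus strand (GRCm38), and no other annotated gene overlaps it. It stood at 2.89, 2.92 and 3.33 CPM in the libraries labelled shDdr2 1 to 3, against 17.3, 8.96 and 14.0 CPM in control 1 to 3. The counts behind these were 40, 60 and 58 in the libraries labelled shDdr2 and 321, 150 and 222 in controls. All 3 controls were above all 3 libraries labelled shDdr2, and the libraries labelled shDdr2 lay close together. Exact Poisson intervals (95%, for counting error alone) ran from 2.06 to 4.30 CPM over the libraries labelled shDdr2. Means were 3.05 ± 0.245 CPM in tumours labelled shDdr2 and 13.4 ± 4.20 CPM in control tumours (SD, n = 3 each), a log2 fold change of -2.14. Between same-numbered libraries the log2 difference was -2.58, -1.62 and -2.07. With each library left out in turn it ran from -2.36 to -1.90, where the lack of overlap already fixes the sign.

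Alox12 was the only member whose groups did not overlap, 1 of 10, where 4.32% of all tested genes did not overlap, 2.11% in the lower direction. Since Alox12 was chosen for this separation, nothing is read from that share. Across all 14498 genes edgeR called 0 at an adjusted p under 0.05 (0%), 209 had an unadjusted p under 0.05 (1.44%), and DESeq2 called 40 (0.276%). Of the 9 members other than Alox12, edgeR called 0, with 0 at an unadjusted p under 0.05. DESeq2 called 0 of the 9, with 1, Alox15, at an unadjusted p under 0.05. With the replicate number as a block in edgeR, 0 of the 9 were called and 1, Alox15, had an unadjusted p under 0.05. With 1 library left out the number of members that did not overlap was 3 without control 1 (Alox12, Alox5 and Alox15) and 3 without the library labelled shDdr2 1 (Alox12, Ptgs1 and Ptges), beside 12.3% and 25.2% of all genes. It was 2 without control 2 (Alox12 and Ptgs2) and 2 without the library labelled shDdr2 2 (Alox12 and Alox15), beside 8.66% and 8.10% of all genes. Of the 9 members other than Alox12, 7 had lower fitted values in libraries labelled shDdr2, with a median log2 fold change of -0.09, where 42.9% of all tested genes had lower values and the median was 0.04.

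**Figure D1:**
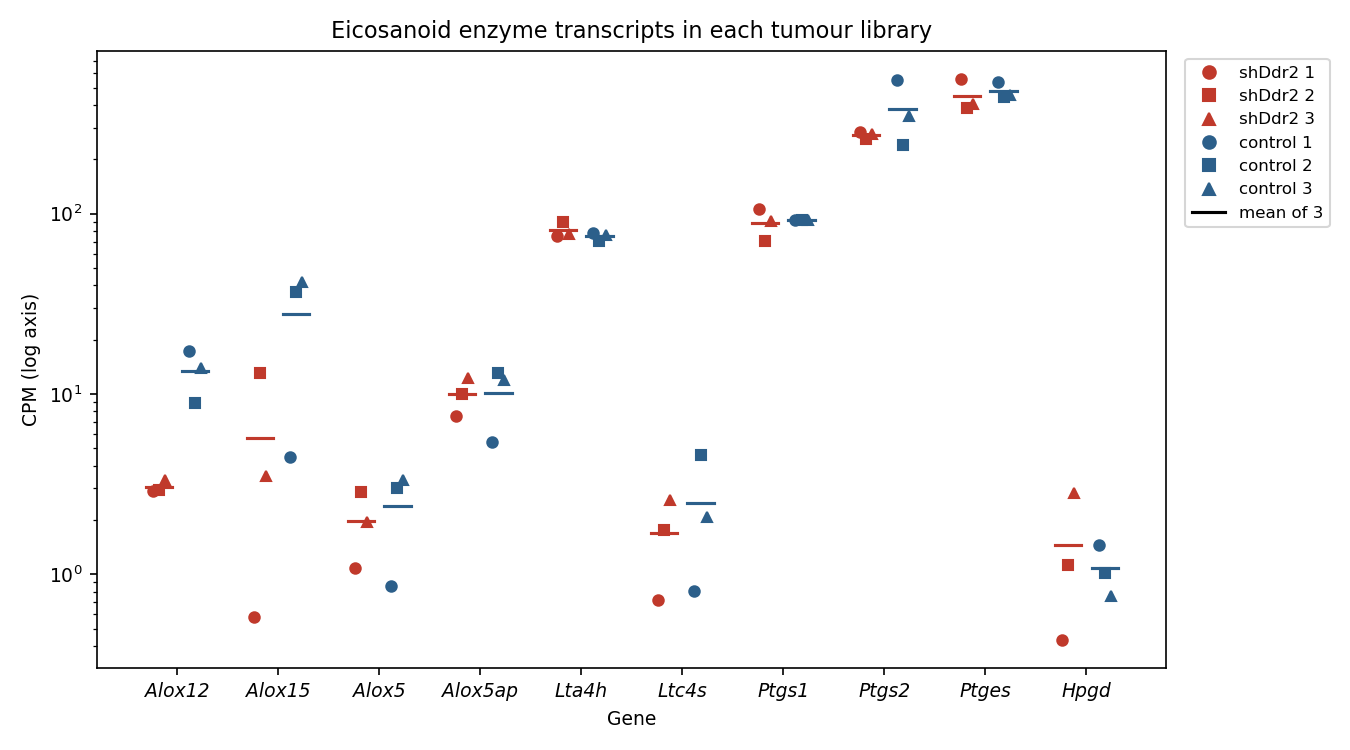
CPM of the 10 eicosanoid genes on a log axis, with a point for each library (shDdr2 in red, control in blue, marker shape for the replicate number) and a bar for the mean of 3. Alox12 is at 2.89 to 3.33 CPM in libraries labelled shDdr2 and at 8.96 to 17.3 CPM in controls, and the groups of the other 9 genes overlap.

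Platelet and skin markers, whose cells are known to express Alox12, did not separate the groups. The 5 platelet and megakaryocyte markers used here summed to 25.1 to 50.2 CPM in libraries labelled shDdr2 and to 35.8 to 45.3 CPM in controls. All 10 keratinocyte markers were in the table and summed to 10215 to 14289 CPM in libraries labelled shDdr2 and to 10394 to 12195 CPM in controls. Krt5 and Krt14 made up most of that sum, with log2 fold changes of 0.02 and -0.05. Over the 10 genes the median was 0.67, with 7 higher, 3 lower and 0 without overlap, where 42.9% of all tested genes were lower. Krt1, Krt10, Sbsn and Krtdap (1.23, 1.16, 1.38 and 1.10) were highest in the library labelled shDdr2 1. Neutrophil markers (6 of 7 in the table, Ly6g not analysed here) summed to 30.2 to 67.1 CPM in libraries labelled shDdr2 and to 69.6 to 91.7 CPM in controls. Skeletal muscle markers (8 of 8) summed to 390.2 to 2862 CPM in libraries labelled shDdr2 and to 8.31 to 105 CPM in controls. Of these 8 genes, 7 were higher without overlap, beside 2.21% of all tested genes, and the median log2 fold change was 4.6. DESeq2 called 3 of the 8, beside 0.276% of all genes, and edgeR called 0, beside 0% of all genes. The neutrophil sum was lower and the muscle sum higher in libraries labelled shDdr2, both without overlap. For neutrophils this rested on S100a8 and S100a9, and each other gene of the list overlapped. Within the neutrophil list, 2 of 6 genes were lower without overlap, beside 2.11% of all tested genes. They were the calcium-binding S100a8 (2.05 to 12.5 CPM in libraries labelled shDdr2, against 13.9 to 16.8 CPM in controls) and S100a9 (5.85 to 17.5 CPM, against 21.2 to 55.6 CPM in controls). The receptors Csf3r and Cxcr2 and the collagenase Mmp8 overlapped, with log2 fold changes of -0.08, 0.14 and 0.41, as did Retnlg at -1.18. Urothelial markers (7 of 9 in the table, Upk1a and Upk3a not analysed here) summed to 275, 424 and 527 CPM in those labelled shDdr2 1 to 3 and to 762, 416 and 444 CPM in control 1 to 3, which overlapped. Within that list, 3 of 7 genes were lower without overlap, beside 2.11% of all tested genes. They were the keratins Krt8 and Krt18, and Pparg, a nuclear receptor of urothelial differentiation. The log2 fold changes of Krt8 and Krt18 were -1.41 (95% interval -3.64 to 0.82) and -0.66 (-1.41 to 0.09), and both intervals include 0. Krt18 barely separated, at 72.1 CPM in the library labelled shDdr2 2 against 72.4 CPM in control 3. Krt8 had 4 counts in the library labelled shDdr2 1. Upk1b, Upk2, Krt20 and Gata3 overlapped. Pparg ran from 1.90 to 5.05 CPM in libraries labelled shDdr2, against 10.3 to 16.8 CPM in controls, a log2 fold change of -1.74 (95% interval -2.77 to -0.72). DESeq2 called 1 of the 7, Pparg (adjusted p = 0.0488), beside 0.276% of all genes, and edgeR called 0, beside 0% of all genes. The part of the keratinocyte, neutrophil, muscle and urothelial genes in the difference of Alox12 was not tested.

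The lipoxygenase neighbours of Alox12 overlapped between the groups. They were lower in the library labelled shDdr2 of each same-numbered pair, as Alox12 was, but the labels do not say what a number stands for. Alox12, Alox12e and Alox15 lie within 1 stretch of chromosome 11, all on the minus strand, with Alox12e at 70315610 to 70322628 and Alox15 at 70344152 to 70352031. Their annotated transcripts share 0 stretches of 50 bases with each other, so an exact match of that length could not be assigned to more than 1 of them. Alox15, which in mice encodes the leukocyte-type lipoxygenase known from resident macrophages and eosinophils, stood at 0.578, 13.1 and 3.50 CPM in the libraries labelled shDdr2 1 to 3, against 4.48, 36.6 and 41.9 CPM in control 1 to 3. Control 2 and 3 were above all libraries labelled shDdr2, while control 1 lay below the library labelled shDdr2 2. The lowest value rests on 8 counts, with an exact Poisson interval of 0.249 to 1.14 CPM.

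Means of Alox15 were 5.73 ± 6.55 CPM in tumours labelled shDdr2 and 27.6 ± 20.2 CPM in controls (SD, n = 3 each). The log2 fold change was -2.25 with a 95% interval of -4.83 to 0.33, which includes 0. Leaving out the library labelled shDdr2 2 gave -3.73, and leaving out shDdr2 1 gave -1.72. Same-numbered libraries differed by -2.95, -1.48 and -3.58 on the log2 scale. Over the 6 libraries its coefficient of variation was 108%, the highest of the 10 members, against 76.2% for Alox12 and 8.27% for Lta4h.

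Alox12e, an epidermal-type lipoxygenase gene of the mouse, stood at 1.16, 30.6 and 5.34 CPM in the libraries labelled shDdr2 1 to 3, against 4.10, 69.9 and 29.6 CPM in control 1 to 3. The libraries labelled shDdr2 1 and 3 and control 1 held the 3 lowest values of both Alox12e and Alox15, whereas control 1 held the highest value of Alox12. Alox12e differed by -1.47 on the log2 scale (95% interval -4.33 to 1.39), and same-numbered libraries differed by -1.83, -1.19 and -2.47. On the other side of Alox12, 1615 bases away, the ribonuclease gene Rnasek stood at 86.9, 77.2 and 73.7 CPM in the libraries labelled shDdr2 1 to 3, against 101, 77.8 and 83.3 CPM in control 1 to 3. Its log2 fold change was -0.14 (95% interval -0.59 to 0.31).

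**Figure D2:**
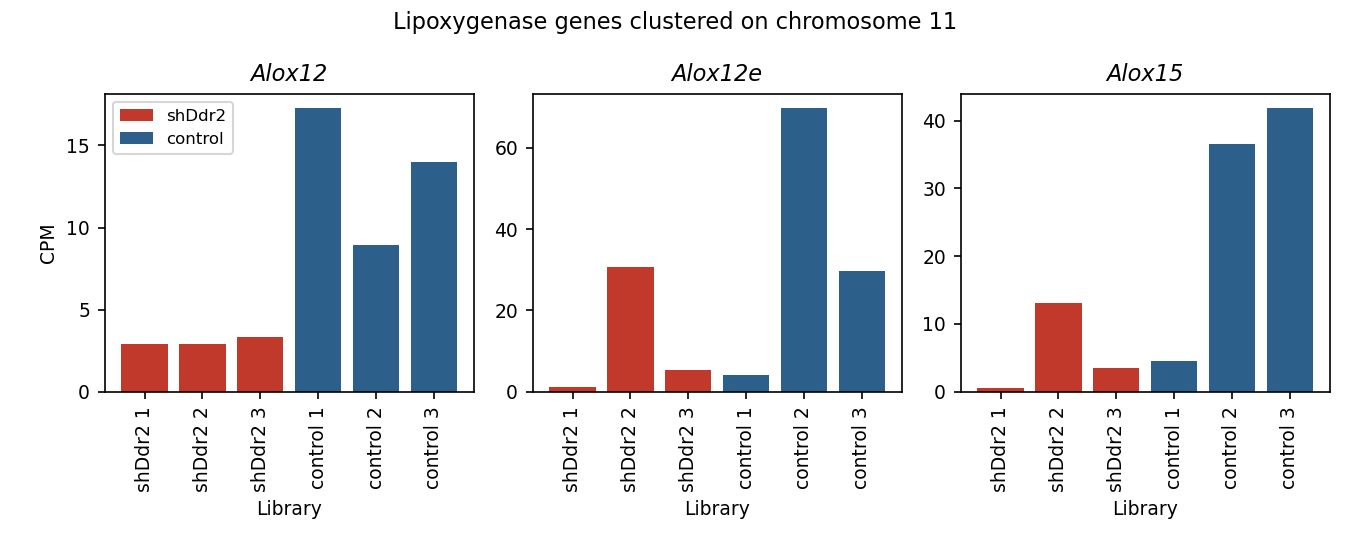
CPM of Alox12, Alox12e and Alox15 in each library as bars from 0, libraries labelled shDdr2 in red and controls in blue. Alox12 is low in all 3 libraries labelled shDdr2, while Alox12e and Alox15 are lowest in the library labelled shDdr2 1 and also low in control 1 (4.10 and 4.48 CPM).

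Among markers of cells known to express Alox15, macrophage genes (8 of 8 in the table) summed to 267, 563 and 598 CPM in the libraries labelled shDdr2 1 to 3 and to 311, 656 and 509.8 CPM in control 1 to 3. The 2 of 5 eosinophil markers in the table summed to 1.66, 3.56 and 1.72 CPM in the libraries labelled shDdr2 1 to 3 and to 1.56, 4.72 and 1.51 CPM in control 1 to 3, with Epx, Prg2 and Il5ra not analysed here. Neither sum separated the groups. The library labelled shDdr2 1 and control 1 had the lowest macrophage sums, and their part in the values of Alox15 was not tested.

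The leukotriene genes did not separate the groups. Alox5, the enzyme that starts leukotriene synthesis, stood at 1.08, 2.87 and 1.95 CPM in the libraries labelled shDdr2 1 to 3, against 0.863, 2.99 and 3.33 CPM in control 1 to 3. Alox5ap, the membrane protein that presents arachidonic acid to it, stood at 7.58, 10.0 and 12.2 CPM in the libraries labelled shDdr2 1 to 3, against 5.39, 13.1 and 12.0 CPM in control 1 to 3. Ltc4s, which joins glutathione to leukotriene A, stood at 0.722, 1.75 and 2.58 CPM in the libraries labelled shDdr2 1 to 3, against 0.809, 4.60 and 2.07 CPM in control 1 to 3. For each of these 3 genes the lowest library of each group was the one numbered 1, as for the macrophage and mast cell marker sums, whose part in these values was not tested. Mast cell markers (7 of 8 in the table) summed to 23.1, 47.4 and 32.0 CPM in the libraries labelled shDdr2 1 to 3 and to 28.3, 51.6 and 66.2 CPM in control 1 to 3. All 7 had lower fitted values in libraries labelled shDdr2 (median log2 fold change -0.73), where 42.9% of all tested genes did, and 0 were without overlap. The log2 fold changes of Alox5, Alox5ap and Ltc4s were -0.27 (95% interval -1.67 to 1.14), -0.03 (-0.96 to 0.90) and -0.55 (-2.21 to 1.11). Signs turned with 1 library left out, as far as 0.05 for Alox5 without control 3, 0.19 for Alox5ap without control 2 and 0.24 for Ltc4s without control 2. Exons of Alox5ap and Ltc4s share 189 and 268 bases with antisense genes, and the strand setting of the counting is not given in the sources used here.

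Lta4h, the hydrolase that makes leukotriene B, was the steadiest member. It stood at 75.2, 89.7 and 77.3 CPM in the libraries labelled shDdr2 1 to 3, against 78.1, 70.5 and 75.8 CPM in control 1 to 3. The groups overlapped, with a log2 fold change of 0.11 (95% interval -0.31 to 0.53), and the library labelled shDdr2 1 and control 1 did not stand apart.

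Of the cyclooxygenases, Ptgs1, the constitutive form, stood at 106, 70.4 and 90.6 CPM in the libraries labelled shDdr2 1 to 3, against 92.1, 92.1 and 91.8 CPM in control 1 to 3. The controls agreed closely, and the libraries labelled shDdr2 lay on both sides of them. The log2 fold change was -0.05 (95% interval -0.53 to 0.44). Its exons share 148 bases with an opposite-strand entry of the annotation.

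Ptgs2, the inducible cyclooxygenase, stood at 282, 258 and 277 CPM in the libraries labelled shDdr2 1 to 3, against 554, 239 and 347 CPM in control 1 to 3. The libraries labelled shDdr2 lay close together, between the lowest control and the other 2. Means were 272 ± 12.8 CPM in tumours labelled shDdr2 and 380.3 ± 160.1 CPM in controls (SD, n = 3 each), a log2 fold change of -0.48 (95% interval -1.23 to 0.26). Without control 1, the highest library, it was -0.10. Per kilobase of exon, the ratio of Ptgs2 to Ptgs1 was 2.26, 3.10 and 2.59 in the libraries labelled shDdr2 1 to 3 and 5.10, 2.20 and 3.21 in control 1 to 3, so Ptgs2 was the more abundant cyclooxygenase transcript in every library.

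Ptges, the microsomal prostaglandin E synthase that is commonly coupled to Ptgs2, stood at 559, 387 and 406 CPM in the libraries labelled shDdr2 1 to 3, against 539, 443 and 457 CPM in control 1 to 3. In both groups the library numbered 1 was highest. The log2 fold change was -0.09 (95% interval -0.64 to 0.46). Hpgd, the dehydrogenase that inactivates prostaglandin E, stood at 0.433, 1.12 and 2.81 CPM in the libraries labelled shDdr2 1 to 3, against 1.46, 1.02 and 0.754 CPM in control 1 to 3. The libraries labelled shDdr2 spanned both ends of the range, from 6 to 49 counts. Its log2 fold change of 0.44 (95% interval -1.13 to 2.01) turned to -0.44 without the library labelled shDdr2 3, which also had the highest sum of fibroblast markers (9790 CPM). The part of that sum in the value of Hpgd was not tested.

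**Figure D3:**
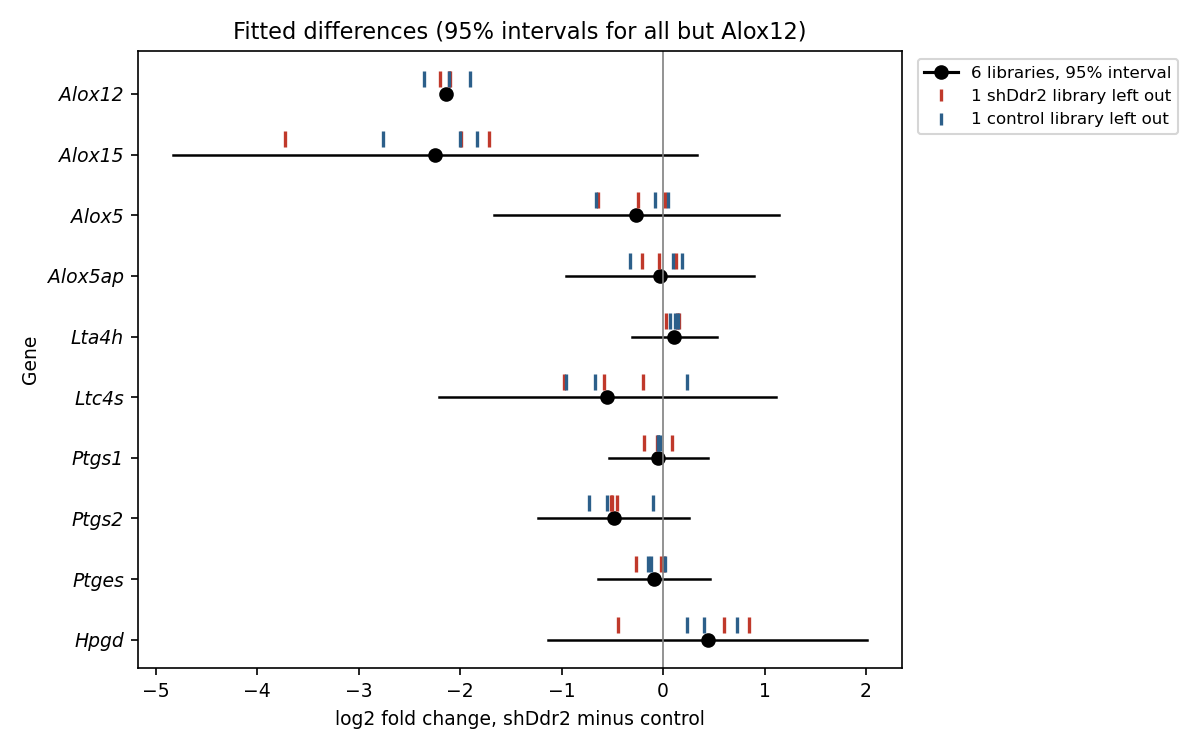
Fitted log2 fold change of each of the 10 genes, libraries labelled shDdr2 minus controls (point), with its 95% interval (line, not drawn for Alox12), and the same value with 1 library left out (ticks, coloured by the group of that library). The Alox12 ticks stay between -2.36 and -1.90, while those of Alox5, Alox5ap, Ltc4s, Ptgs1, Ptges and Hpgd fall on both sides of 0.

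Levels were compared between genes as CPM per kilobase of annotated exon, averaged over the 6 libraries. Ptges (118 CPM per kb, range 98.5 to 142) and Ptgs2 (71.2, range 52.3 to 121) led, and their ranges overlapped. Ptgs1 (23.3, range 18.1 to 27.3) and Lta4h (12.7, range 11.6 to 14.7) followed, each with a range below that of the gene before it. The exon length joins all annotated exons of a gene and can exceed that of the transcript made, so the order depends on it. It was 3.88 kb for Ptgs1 and 6.1 kb for Lta4h, and in CPM alone their ranges overlapped (70.4 to 106 and 70.5 to 89.7). Alox5ap (7.09), Alox15 (6.80), Ltc4s (2.06), Alox12 (2.01), Hpgd (0.752) and Alox5 (0.531) came after, and from Alox15 on each range overlapped that of the gene before. Among 13464 tested genes with an exon length, Ptges stood at percentile 97.6 and Ptgs2 at 95.2, while Alox12 stood at 23.8 and Alox5 at 8.65. Ptgs2 and Ptges together made up 75.9% to 81.2% of the summed level per kilobase of the 10 genes in libraries labelled shDdr2 and 71.0% to 84.3% in controls. Alox12 made up 0.282% to 0.379% of it in libraries labelled shDdr2 and 0.944% to 1.38% in controls.

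In the wider pathway, 41 of 53 listed genes were in the table and all 41 were tested. The edgeR test called 0 of them, with 1 (Pla2g2f) at an unadjusted p under 0.05. DESeq2 called 0, with 2 (Pla2g2f and Cysltr1) at an unadjusted p under 0.05. With the replicate block edgeR called 0, with 3 (Alox12e, Pla2g4c and Cysltr1) at an unadjusted p under 0.05. The median log2 fold change was 0.09, with 26 genes at higher and 15 at lower values in libraries labelled shDdr2, beside a median of 0.04 over all tested genes. The groups did not overlap in 3 of the 41, 2 of them higher and 1 lower, where 2.21% of all tested genes were higher and 2.11% lower without overlap.

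Among phospholipases and other enzymes that release arachidonic acid (10 of 15 in the table), Pla2g4a, the cytosolic phospholipase that supplies most eicosanoid synthesis, was the most abundant at 12.9 CPM per kb. It stood at 114, 85.3 and 68.8 CPM in the libraries labelled shDdr2 1 to 3, against 94.8, 62.0 and 68.1 CPM in control 1 to 3, and the groups overlapped. Pla2g12a, a secreted phospholipase, stood at 14.4, 13.6 and 14.4 CPM in the libraries labelled shDdr2 1 to 3, against 14.7, 19.1 and 18.1 CPM in control 1 to 3. Its values were lower without overlap in the libraries labelled shDdr2, by -0.29 on the log2 scale (95% interval -0.81 to 0.23), which did not pass the test. Pla2g2d, a secreted phospholipase of lymphoid tissue, averaged 0.759 ± 0.119 CPM in tumours labelled shDdr2 and 0.398 ± 0.165 CPM in controls (SD, n = 3 each), without overlap and without passing the test. This lack of overlap rests on few reads, with 12, 16 and 11 counts in the libraries labelled shDdr2 1 to 3, against 4, 9 and 7 in control 1 to 3. Mgll, the lipase that frees arachidonic acid from a monoglyceride, was at 18.6 ± 9.55 CPM in tumours labelled shDdr2 and 18.4 ± 7.84 CPM in controls (SD, n = 3 each). Pla2g2f, an epidermal secreted phospholipase, stood at 32.6, 2.05 and 5.63 CPM in the libraries labelled shDdr2 1 to 3, against 2.10, 2.21 and 2.33 CPM in control 1 to 3. Its high value lay in the library labelled shDdr2 1, which also had the highest keratinocyte marker sum (14289 CPM), whose part in that value was not tested.

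Of the other lipoxygenases (3 of 4 in the table), Alox12b and Aloxe3, the enzymes of the skin barrier, averaged 2.60 ± 1.79 CPM and 2.12 ± 1.87 CPM in tumours labelled shDdr2 and 2.96 ± 2.07 CPM and 1.33 ± 0.663 CPM in controls (SD, n = 3 each). Both overlapped between groups. Of the other prostanoid synthases (6 of 7), the most abundant per kilobase were Hpgds, a prostaglandin D synthase (7.12 CPM per kb), Ptges2, another prostaglandin E synthase (6.56), and Akr1b3, an aldose reductase with prostaglandin F synthase activity (6.55). Ptges2 averaged 38.9 ± 14.5 CPM in tumours labelled shDdr2 and 27.5 ± 5.85 CPM in controls, and Hpgds 39.3 ± 17.0 CPM in tumours labelled shDdr2 and 52.2 ± 27.5 CPM in controls (SD, n = 3 each). Akr1b3 averaged 46.6 ± 21.1 CPM in tumours labelled shDdr2 and 63.3 ± 31.8 CPM in controls (SD, n = 3 each), and none of the 6 was without overlap.

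Of the other leukotriene enzymes (4 of 5), Mgst2, a glutathione transferase able to make leukotriene C, led at 11.7 CPM per kb, followed by the dipeptidase Dpep1 (1.78) and the transferase Ggt5 (0.881). Mgst2 stood at 91.0, 30.1 and 26.1 CPM in the libraries labelled shDdr2 1 to 3, against 45.7, 38.2 and 29.0 CPM in control 1 to 3, highest again in the library labelled shDdr2 1. Dpep1 averaged 4.75 ± 2.36 CPM in tumours labelled shDdr2 and 4.09 ± 0.875 CPM in controls, and Ggt5 5.29 ± 3.26 CPM in tumours labelled shDdr2 and 5.13 ± 2.16 CPM in controls (SD, n = 3 each). Of the genes for transport and breakdown (6 of 7), the reductase Ptgr1, which inactivates leukotriene B and prostaglandin metabolites, led at 51.5 CPM per kb. It stood at 216, 105 and 67.6 CPM in the libraries labelled shDdr2 1 to 3, against 111, 117 and 92.1 CPM in control 1 to 3. The exporters Abcc4 and Abcc1 averaged 56.2 ± 19.3 CPM and 87.3 ± 31.7 CPM in tumours labelled shDdr2 and 59.5 ± 10.0 CPM and 101 ± 18.5 CPM in controls (SD, n = 3 each).

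Of the prostanoid receptors (7 of 9), Ptger1 led at 3.08 CPM per kb, followed by Ptger4 (0.854) and the thromboxane receptor Tbxa2r (0.686). Ptger1 stood at 4.33, 22.7 and 21.9 CPM in the libraries labelled shDdr2 1 to 3, against 13.2, 22.2 and 16.6 CPM in control 1 to 3, and Ptger4 at 3.39, 4.92 and 5.80 CPM in the libraries labelled shDdr2 1 to 3, against 8.52, 5.20 and 6.22 CPM in control 1 to 3. Both overlapped. Ptgfr, the prostaglandin F receptor, was without overlap at 0.961 ± 0.116 CPM in tumours labelled shDdr2 and 0.569 ± 0.0860 CPM in controls (SD, n = 3 each), a log2 fold change of 0.75 (95% interval -0.17 to 1.68) that did not pass the test. Few reads lie behind it, with 12, 19 and 19 counts in the libraries labelled shDdr2 1 to 3, against 9, 11 and 9 in control 1 to 3. Tbxa2r averaged 1.47 ± 0.862 CPM in tumours labelled shDdr2 and 1.17 ± 0.147 CPM in controls (SD, n = 3 each).

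Of the leukotriene and HETE receptors (5 of 6), Ltb4r1, the leukotriene B receptor, led at 8.84 CPM per kb and stood at 19.1, 6.43 and 7.58 CPM in the libraries labelled shDdr2 1 to 3, against 7.50, 14.0 and 19.3 CPM in control 1 to 3. Cysltr1, a receptor of cysteinyl leukotrienes, stood at 9.32, 18.2 and 18.7 CPM in the libraries labelled shDdr2 1 to 3, against 7.71, 7.89 and 11.2 CPM in control 1 to 3. The groups of Cysltr1 overlapped in the library labelled shDdr2 1, and its log2 fold change was 0.79 (95% interval -0.03 to 1.61). Fpr2, a receptor of lipoxins, averaged 1.57 ± 0.161 CPM in tumours labelled shDdr2 and 1.43 ± 0.211 CPM in controls (SD, n = 3 each).

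**Figure D4:**
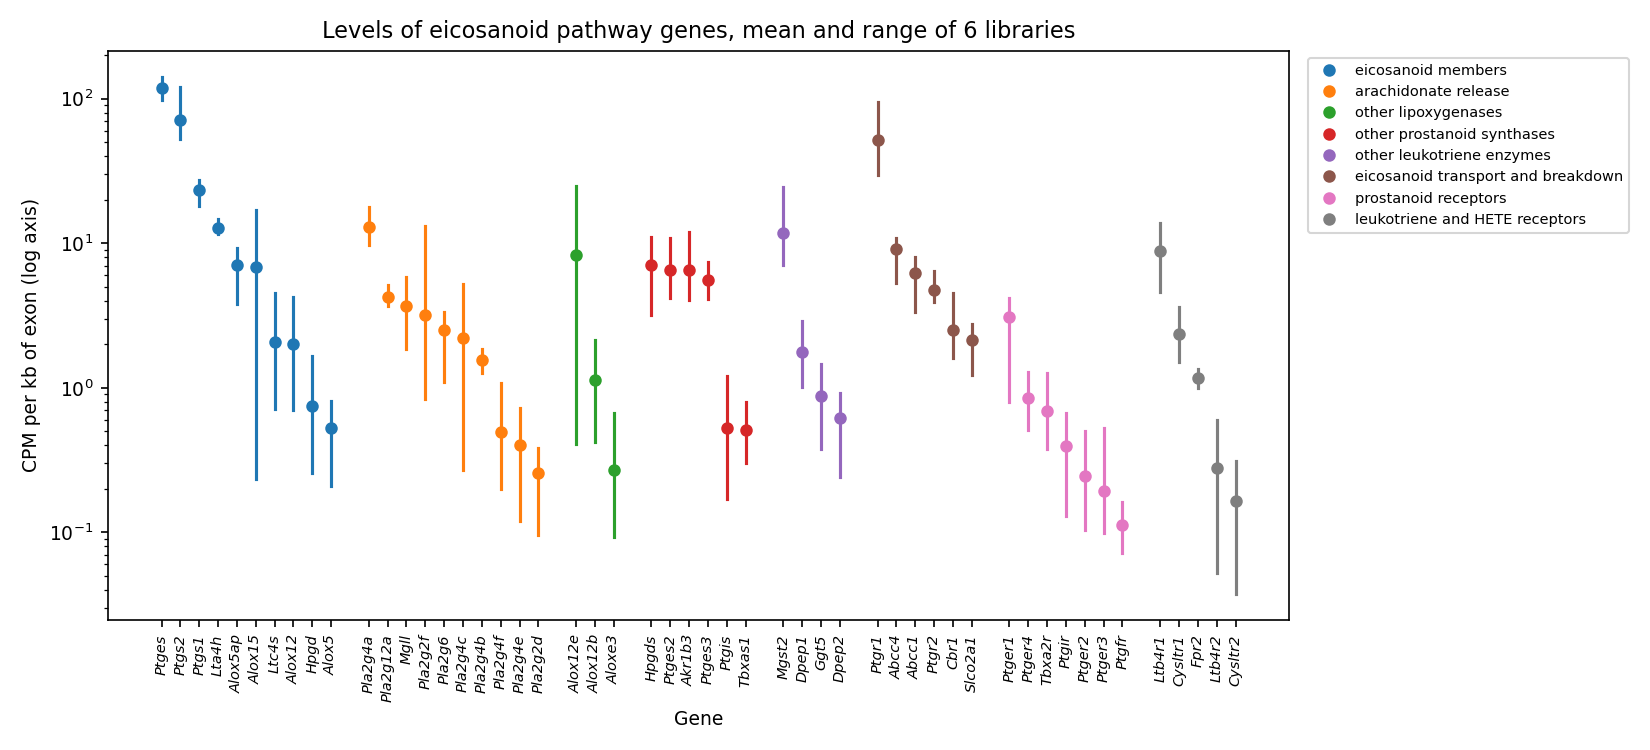
Level per kilobase of exon of the 10 genes and of the 41 other pathway genes in the table, as the mean of 6 libraries (point) and the range (line) on a log axis, coloured by role. Ptges, Ptgs2 and Ptgr1 are the most abundant at 118, 71.2 and 51.5 CPM per kb, and Alox12 is at 2.01.

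Among 12320 named genes with an average log2 CPM of at least 1, those whose log2 CPM followed Alox12 most closely over the 6 libraries were Rnf128 (Pearson r of 0.979), Sft2d2 (0.979), Unc13a (0.977), Taf4b (0.964) and S100a3 (0.963). The 2 most opposed were Gpr34 (-0.984) and Hbs1l (-0.982). These are descriptions over 6 libraries that share their groups, depth and tumour mix, picked as the extremes of many genes. Rnf128, a membrane ubiquitin ligase, stood at 7.65, 6.67 and 8.90 CPM in the libraries labelled shDdr2 1 to 3, against 20.8, 13.1 and 15.7 CPM in control 1 to 3. S100a3, a calcium-binding protein, stood at 19.9, 17.6 and 17.7 CPM in the libraries labelled shDdr2 1 to 3, against 42.8, 31.4 and 30.9 CPM in control 1 to 3. The groups of all 7 genes did not overlap, which follows from picking them by their likeness to Alox12. In each of the 5 positive ones control 1 or control 3 was highest, as in Alox12. Among the 9 other members, r with Alox12 was highest for Ptgs2 (0.69) and Alox15 (0.51) and lowest for Lta4h (-0.40), with Hpgd at 0.01 but below the level of the genes compared.

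**Figure D5:**
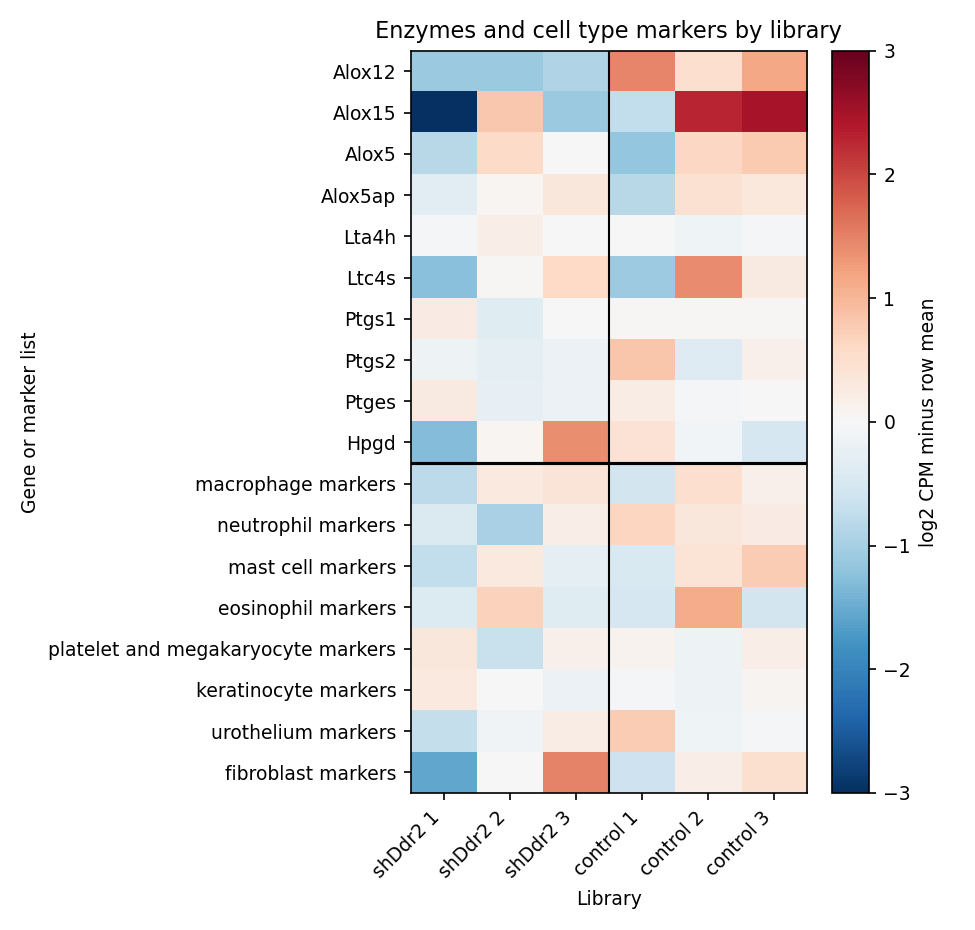
Log2 CPM of the 10 genes and of the summed marker lists in each library, minus the mean of the row (red above, blue below, scale ending at -3 and 3), with libraries labelled shDdr2 left of controls. Alox12 is below its mean in all 3 libraries labelled shDdr2 (-1.12, -1.10 and -0.91) and above it in all 3 controls (1.46, 0.51 and 1.16), while Alox5, Alox5ap and Ltc4s are low in both libraries numbered 1.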

How the data were processed

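RNA was measured by poly-A selected, paired-end RNA sequencing of 6 tumours, per the labels' protocols. Per the submitters' processing notes, the tools were limma, RSEM 1.2.31 and Bowtie2 2.1.0 and the build was GRCm38.p5, with no step given for any of them. The authors deposited a table of whole counts by Entrez number, possibly rounded from estimates. The lowest count in the table is 1, so genes at 0 in a library are not analysed here. The authors also deposited log2 values, which equal the log2 of the count over 1 factor per library, plus 1. Undoing this gave whole numbers within 0.05 in 91770 of 91770 values.

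Genes passing filterByExpr (14498) were scaled by TMM and compared with the robust quasi-likelihood test of edgeR 4.0.16 in R 4.3.3, two-sided, adjusted by Benjamini-Hochberg over all tested genes. In the median gene the 95% interval of the log2 fold change was ± 0.76. Alternatives used DESeq2 1.42.0, limma 3.58.1, other scalings and filters, a replicate block and leaving out each library. Symbols came from RefSeq (14876 Entrez numbers matched, 419 did not) and coordinates and exon lengths from GENCODE M21 on GRCm38. Promoters came from RefSeq, where 8 of 10 members matched and Alox15 and Alox5ap did not.

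Named genes were the members, Ddr2, the nearest tested gene on each side of Alox12, up to 3 of the most abundant genes per kilobase in each pathway list, those past the test or without overlap, and the 5 most and 2 least like Alox12. Pla2g2f, the 1 pathway gene at an unadjusted p under 0.05 in edgeR without the block, was named after its values were seen. So were the marker genes and those named for the replicate block. Members and lists were chosen with earlier results of these data known. Replicate numbers come from the titles. Deviations from group means correlated between same-numbered libraries with r of 0.299, 0.267 and 0.253, all above the criterion of 0.1 for pairs. The library labelled shDdr2 2 and control 3, with unlike numbers, also passed it (0.254), and the remaining pairs ran from -0.381 to -0.086. The criterion thus does not single out the same-numbered pairs, and the labels do not say what a number stands for.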

Additional observations from a re-analysis of the deposited data

How the results depend on the processing

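DESeq2 called 40 genes and 1 of the 10 members, where edgeR called 0 and 0. That member was Alox12, whose values in this comparison chose the group, so nothing is read from the call, and 0 of the 9 others were called under any of the 16 alternatives. The other 15 alternatives called 0 genes and 0 members, among them the replicate block (0 genes called, lowest adjusted p 0.395), and 0 of the 41 other pathway genes were called under any of the 16 alternatives. The replicate block gave log2 fold changes of -2.08 for Alox12 and -2.61 for Alox15 and changed no call at an adjusted p under 0.05. It moved the number at an unadjusted p under 0.05 to 1, against 0, for the 9 other members and to 3, against 1, for the 41 pathway genes. DESeq2 gave 1 for the 9 and 2 for the 41. For the 9, edgeR also gave 1 without control 1, without control 2 or without the library labelled shDdr2 2. With 1 library left out, the number of tested genes whose groups did not overlap ran from 1174 to 3651, against 626 with all 6, which is partly a matter of having fewer libraries, and the number of members from 1 to 3. Ddr2 ran up to 0.71 without the library labelled shDdr2 1, and turned to -0.08 without control 1 and to -0.28 without the library labelled shDdr2 3, and the cause was not tested. Over the 16 alternatives Alox12 ran from -2.36 to -1.90 on the log2 scale and Alox15 from -3.73 to -1.72. Signs changed in 6 of 16 settings for Alox5ap, 2 for Alox5, 2 for Ptges and 1 each for Ptgs1, Ltc4s and Hpgd. Scaling moved the median log2 fold change of all genes between 0.01 and 0.05. Depth limits Hpgd, Ltc4s and Alox5, which had 6 to 77 counts in a library, and Pla2g2d and Ptgfr, which had 4 to 19. It also bears on Alox12, with 40 to 60 counts in libraries labelled shDdr2, and on Alox15, with 8 counts in the library labelled shDdr2 1.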
